A study of Mus musculus with 8 samples.

Results

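Heat shock and unfolded protein response genes were followed in 8 RNA-seq libraries of mouse brain. The 41 genes were taken by symbol and all 41 were listed in both deposited tables, which hold 54532 genes for the PTS + RS and RS libraries and 28229 genes for the RGFP109 and NaCl libraries. They comprised 18 cytosolic heat shock genes, 12 genes of protein folding in the endoplasmic reticulum (ER folding), 3 mitochondrial chaperone genes and 8 genes that carry the signal of the unfolded protein response (UPR signalling). All libraries came from C57BL/6 mice, males by the methods of the study, and were labelled Day 21, with 2 libraries in each of 4 groups. Mice of the RS group had restraint stress, in which the mouse is held in a tube each day. Mice of the PTS + RS group had the same restraint and in addition a photothrombotic stroke (PTS) of the cortex, made with Rose Bengal and light. The RGFP109 and NaCl groups were both PTS + RS mice. The RGFP109 mice were given RGFP109, used in the study as an inhibitor of histone deacetylase 3 (HDAC3), subcutaneously at 60 mg/kg once per day. The study also describes RGFP109 as selective for both HDAC1 and HDAC3. The NaCl mice were the controls for it. By the study, RGFP109 was given in DMSO with hydroxypropyl-β-cyclodextrin, and its control is called vehicle. Since the control is labelled NaCl, an effect of the solvent may not be told apart from that of RGFP109. The labels give a course of 2 weeks, while the study elsewhere gives 21 consecutive days, so the length of treatment is uncertain. The labels give cortex for every library except replicate 2 of the RGFP109 group and replicate 2 of the NaCl group, which are labelled amygdala. An age of around 3 months is given only for mice of the behavioural test, and no unstressed or sham-operated library was analysed here. Nothing states that the libraries of a group came from separate mice, so p-values measure only the spread between these libraries, which may not be that between mice. In the RGFP109 and NaCl groups this spread also holds any difference between a library labelled cortex and one labelled amygdala.

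A library held between 15902013 and 21712033 counts on genes, and some libraries stood apart from their group. Summed over 10 markers of the olfactory bulb, NaCl replicate 1 held 1618 CPM (counts scaled to 1000000 per library), whereas the other 7 libraries held 30.1 to 49.5 CPM, with S100a5 at 0 counts in each of those 7. Summed over 10 markers of the choroid plexus, PTS + RS replicate 2 held 51.8 CPM with Kcnj13 at 0, against 1660 CPM in PTS + RS replicate 1 and 1871 to 3894 CPM in the RS libraries. In the RGFP109 and NaCl table this sum was 1542 CPM in RGFP109 replicate 1 and 17.0 to 46.5 CPM in the other libraries, with Slc4a5 at 0 in RGFP109 replicate 2. The 10 cortex markers summed to 1508 and 1297 CPM in the 2 libraries labelled amygdala and to 866 and 791 CPM in their partners labelled cortex. Of the 10 amygdala markers, 8 were higher in the replicates 2 (median log2 difference 0.53, none called by edgeR), but the sum was 232 and 215 CPM there and 261 and 556 CPM in their partners. These markers do not settle the amygdala label, and the libraries are called by replicate number below. Microglial markers were higher in all 10 of 10 genes in PTS + RS than in RS and passed the test in all 10, with sums of 994 to 1184 CPM against 265 to 293 CPM. Astrocyte markers passed in 5 of 10, with sums of 6731 to 7927 CPM against 4558 to 4592 CPM. The part of these cells in the values below was not tested, and in bulk tissue fewer cells of a type cannot be told apart from less RNA per cell.

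Cytosolic heat shock proteins are chaperones that hold unfolded proteins and refold them with ATP. Heat shock factor (Hsf1) raises the inducible ones when unfolded protein builds up in the cytosol. The ER has its own chaperones and disulfide isomerases, and 3 membrane sensors, Ern1 (IRE1), Eif2ak3 (PERK) and Atf6, answer to unfolded protein there through Xbp1 splicing, phosphorylation of eIF2 with translation of Atf4, and release of the Atf6 fragment. Gene counts read mRNA level only, so splicing of Xbp1, phosphorylation and cleavage are outside these data.

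Levels of the members were compared per gene length, as FPKM (fragments per length of gene and size of library), which the authors deposited and which equals the count divided by gene length and by 1 factor per library. The highest were the cytosolic chaperones Hsp90ab1 (median 510 FPKM over the 8 libraries), Hspa8 (Hsc70, 312 FPKM) and Hsp90aa1 (253 FPKM). These were followed by the ER lectin chaperones Calr (111 FPKM) and Canx (65.6 FPKM) and the disulfide isomerase Pdia3 (57.6 FPKM). The ER Hsp70 Hspa5 (BiP) stood at 52.7 FPKM, the ER Hsp90 Hsp90b1 at 52.9 FPKM and the mitochondrial Hsp60 Hspd1 at 55.9 FPKM. The inducible Hsp70 genes Hspa1b (4.77 FPKM) and Hspa1a (2.32 FPKM) were near the bottom of the order, beside the sensor Ern1 (2.32 FPKM). Trib3, a pseudokinase induced by Atf4 and Ddit3, was lowest at 0.280 FPKM, with 9 to 18 counts in a library. Along this order the ranges of neighbours over the 8 libraries were separate only between Hsp90aa1 and Calr, Calr and Canx, Dnajb1 and Creld2, and Ern1 and Trib3, and all other neighbours overlapped. The 2 tables are separate experiments, so a level set across them was not tested.

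By list, the median member stood at 19.6 FPKM for cytosolic, 22.9 FPKM for ER folding, 51.5 FPKM for mitochondrial and 7.14 FPKM for UPR signalling genes. Cytosolic levels were the most uneven, from 2.32 to 510 FPKM, while ER folding genes ran from 7.96 to 111 FPKM. Hspa8, Hsp90aa1 and Hsp90ab1 made up 68.7% to 74.1% of the summed CPM of the 18 cytosolic genes in each library. All 41 genes together took 0.707% to 0.863% of the counts. Over the 8 libraries the highest FPKM was more than 2 times the lowest in 6 of 18 cytosolic genes (Hspa1a, Hspa1b, Hspb8, Cryab, Hsph1 and Bag3), in 0 of 12 ER folding genes, in 0 of 3 mitochondrial genes and in 1 of 8 UPR signalling genes (Chac1). Within a table this was rarer: Hspa1a and Chac1 among the PTS + RS and RS libraries, and Hspb8, at 4.08 times, among the RGFP109 and NaCl libraries.

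**Figure D1:**
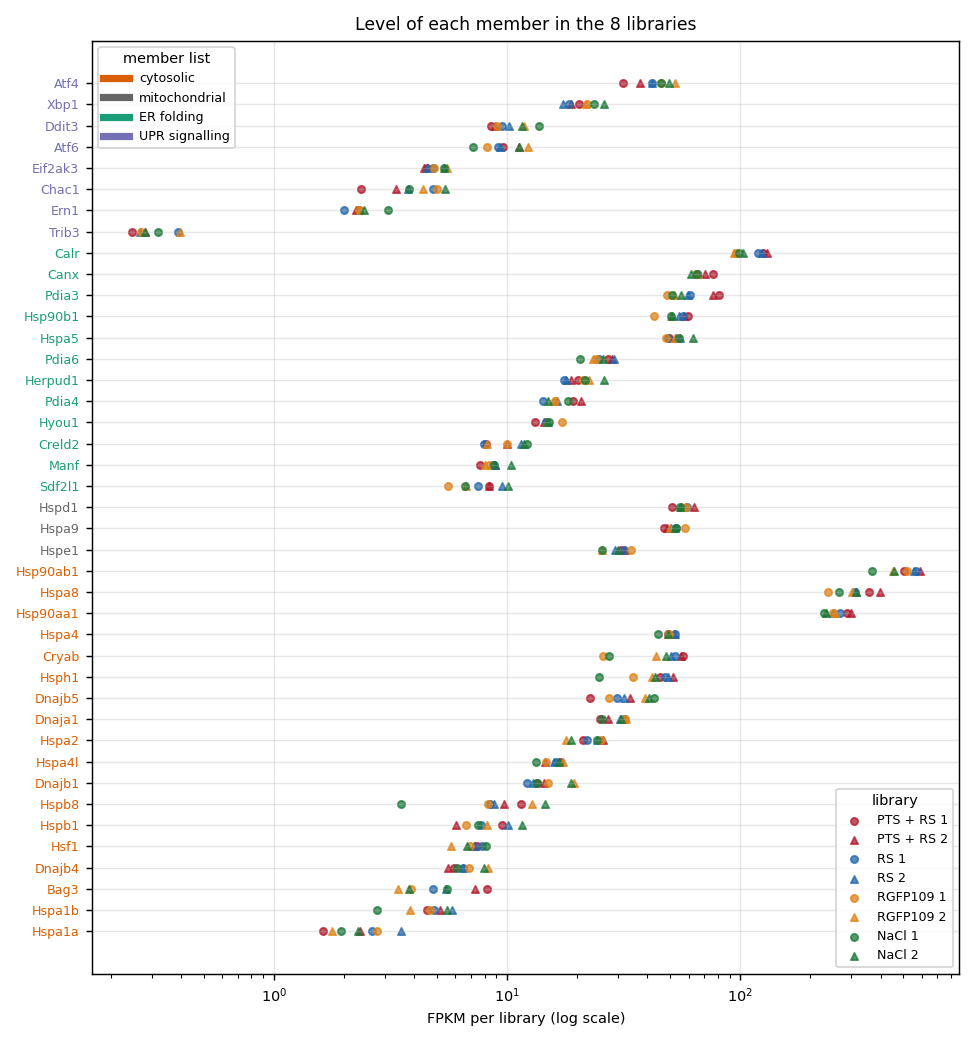
FPKM of each of the 41 members (rows, coloured by list) in the 8 libraries on a log axis, with circles for replicate 1 and triangles for replicate 2. Hsp90ab1, Hspa8 and Hsp90aa1 lie above 200 FPKM in every library, and Hspb8 has the widest scatter, from 3.52 FPKM in NaCl replicate 1 to 14.5 FPKM in NaCl replicate 2.

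Several of these genes share sequence with relatives, so their counts depend on how the authors assigned such reads. Of the 120-base stretches of their GENCODE M21 transcripts, 44.8% of those of Hspa1a and 45.8% of those of Hspa1b also occur in another gene, chiefly in each other. The share was 42.0% for Hspb1, 33.7% for Hsp90aa1, 25.7% for Hspa8 and 19.85% for Hspd1, and the relative with most of it was a pseudogene or predicted gene. The share is not a size of error, and its effect on the values of these 6 genes was not tested. Hspe1 (8.71%), Dnaja1 (8.25%) and Hsp90b1 (0.333%) shared less, and 32 of the 41 genes shared no such stretch. Some members overlap a neighbour, among them Hspd1 with Hspe1, Ddit3 with Mars and Pdia3 with Catsper2. Whether the counting used strand was not given in the sources used here.

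Some ER folding genes share a promoter element. The element is named for the ER stress response by which such genes are known. Its share among them is therefore a description and no independent result. In the RefSeq windows from 250 bases before to 50 bases after a gene's start (GRCm38.p6, 32 of the 41 genes present), the ER stress response element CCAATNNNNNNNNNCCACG was searched on both strands. It was found in 6 of 10 ER folding genes with a window and in none of the 13 cytosolic, 2 mitochondrial and 7 UPR signalling genes with a window. Of all 32851 windows, 39 held it (0.119%). The stretches around the matches are shown because no other list of members had this element in a window, although 4 ER folding genes with a window lacked it. Capitals mark the match, which is read on either strand.
Hspa5 chr2:34772020-34772048 (+ strand): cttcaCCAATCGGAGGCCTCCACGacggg
Hsp90b1 chr10:86705613-86705681 (- strand): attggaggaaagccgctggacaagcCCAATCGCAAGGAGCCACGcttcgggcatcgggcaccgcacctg
Hsp90b1 chr10:86705528-86705556 (- strand): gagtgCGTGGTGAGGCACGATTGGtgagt
Calr chr8:84847050-84847118 (- strand): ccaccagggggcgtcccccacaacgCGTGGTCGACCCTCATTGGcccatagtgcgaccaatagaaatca
Canx chr11:50325775-50325843 (- strand): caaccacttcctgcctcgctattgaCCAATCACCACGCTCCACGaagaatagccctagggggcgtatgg
Pdia6 chr12:17266466-17266534 (+ strand): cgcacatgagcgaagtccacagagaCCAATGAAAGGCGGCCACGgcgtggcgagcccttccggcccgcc
Creld2 chr15:88819495-88819563 (+ strand): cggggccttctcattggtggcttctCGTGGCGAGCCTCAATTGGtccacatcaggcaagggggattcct
The matches lay 47 to 212 bases before the start, and Hsp90b1 held 2 of them. Pdia3, Pdia4, Herpud1 and Sdf2l1 had a window without these letters, and Manf and Hyou1 had no window. The stretch of Hspa5 and the second one of Hsp90b1 touch a 5′ untranslated region of a longer GENCODE transcript and are therefore shown shorter.

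The heat shock element, searched as GAANNTTCNNGAA or TTCNNGAANNTTC on both strands, occurred in 198 of all windows (0.603%). Among the members it was found in Hspd1 and Hspe1, which share 1 stretch between their divergent starts, and in Hsph1 after the start. In the stretch below, capitals mark 2 matches that overlap each other.
Hspd1 and Hspe1 chr1:55088054-55088081 (+ strand, the strand of Hspe1): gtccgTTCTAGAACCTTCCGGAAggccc
It lies 72 to 89 bases before the start of Hspe1 and 127 to 144 bases before that of Hspd1. Hspa8, Hsp90aa1, Hsp90ab1, Cryab and Hsf1 had no window. Of the 13 cytosolic genes with a window, only 1 had a match. Imperfect copies of the element were not searched, so a window without a match can still hold one. The C/EBP-ATF composite site, to which Atf4 and Ddit3 dimers are known to bind, was searched only as TGATGNAAT. These exact letters were in none of the members' windows and in 0.965% of all windows. Variants of the site were not searched, so members may hold them.

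The first comparison asked what the stroke added to restraint stress, PTS + RS against RS. Of the 40 members tested, 1 was called at an adjusted p under 0.05, against 3.55% of the 17581 genes tested. This was Pdia3 (ENSMUSG00000027248, chr2:121413775-121438687 on GRCm38), an ER disulfide isomerase that works on glycoproteins with Calr and Canx. It stood at 256 and 242 CPM in the PTS + RS libraries and at 193 and 187 CPM in the RS libraries. Both PTS + RS libraries were above both RS libraries, with a mean of 249.01 ± 10.6 CPM (SD, n = 2) against 190 ± 3.86 CPM (SD, n = 2), 31.0% higher. The log2 fold change was 0.39 (SE 0.075, adjusted p = 0.0409 by the quasi-likelihood test of edgeR, Benjamini-Hochberg over all genes). The call was lost when RS replicate 1 (adjusted p = 0.313) or RS replicate 2 (adjusted p = 0.499) was left out of the edgeR fit. No cytosolic, mitochondrial or UPR signalling member was called, and Trib3 was too low to be tested.

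At an unadjusted p under 0.05, 4 members were higher and 3 lower, against 10.3% and 7.55% of all tested genes (17.9% in either direction). Libraries of the 2 groups did not overlap in 14 members that were higher and 9 that were lower in PTS + RS, against 25.7% and 24.5% of all tested genes (50.2% in either direction). Both counts were near the level of all genes. No member reached a log2 fold change of 1 beside an adjusted p under 0.05, against 2.21% of all tested genes. The median log2 fold change was -0.029 for the 18 cytosolic genes, 0.064 for the 12 ER folding genes, -0.013 for the 3 mitochondrial genes and -0.054 for the 7 UPR signalling genes tested, beside -0.0015 over all genes tested. The cytosolic minus the ER folding median was -0.093. Taken per library as the deviation from the mean of the 4 libraries, this difference was -0.024 and -0.0062 in PTS + RS and 0.056 and -0.0097 in RS. RS replicate 2 lay between the 2 PTS + RS libraries, so the groups overlapped. With PTS + RS replicate 1 left out the difference of the medians turned to 0.027, and with RS replicate 1 left out it was -0.019.

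Among the cytosolic genes, Bag3, the co-chaperone that links Hsp70 to selective autophagy, had 21.2 and 18.7 CPM in PTS + RS and 12.4 and 14.1 CPM in RS. All PTS + RS values lay above the RS values, at a log2 difference of 0.59 (SE 0.14) that missed the threshold (edgeR adjusted p = 0.0820). Hspb8, a small heat shock protein that binds Bag3, had 22.5 and 19.0 CPM against 16.5 and 17.2 CPM, again without overlap, at a log2 difference of 0.30 (SE 0.14, edgeR adjusted p = 0.316). Hspa8, the constitutive Hsp70, had 1549 and 1716 CPM against 1345 and 1353 CPM and did not overlap (log2 0.28, SE 0.10, edgeR adjusted p = 0.225). Hsp90aa1, the stress-responsive cytosolic Hsp90, had 1144 and 1175 CPM against 1057 and 991 CPM, also without overlap (edgeR adjusted p = 0.382).

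The inducible Hsp70 genes lay on the other side. Hspa1a had 4.84 and 7.002 CPM in PTS + RS and 7.89 and 10.4 CPM in RS, without overlap, at a log2 difference of -0.63 (SE 0.25, edgeR adjusted p = 0.248). Hspa1b had 12.8 and 14.5 CPM against 13.7 and 16.3 CPM and overlapped. The 11 immediate early genes, which mark recent neuronal activity, were lower in 10 of 11, passed the test in 2, and summed to 370 to 473 CPM in PTS + RS and 587 to 614 CPM in RS. Their part in the Hsp70 values was not tested. The transcription factor Hsf1 had 53.1 and 51.3 CPM against 55.7 and 51.9 CPM, a log2 difference of -0.044 (SE 0.087). The small heat shock genes Hspb1 (9.86 and 6.28 against 8.001 and 10.5 CPM) and Cryab (84.8 and 83.1 against 77.9 and 74.8 CPM) differed in that Hspb1 overlapped and Cryab did not (log2 0.14, edgeR adjusted p = 0.392). Hsph1 (Hsp110), the nucleotide exchange factor of Hsp70, had 331 and 376 CPM against 347 and 359 CPM and overlapped. Dnajb5, a J-domain co-chaperone, had 136 and 202 CPM against 177 and 189 CPM, with both RS values between the PTS + RS values.

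Among the ER folding genes, Pdia4, another disulfide isomerase, had 46.5 and 49.9 CPM in PTS + RS and 34.4 and 39.5 CPM in RS. Its groups did not overlap and its log2 difference of 0.38 (SE 0.11) was about that of Pdia3 but missed the threshold (edgeR adjusted p = 0.115). Canx had 363 and 334 CPM against 307 and 309 CPM, without overlap (log2 0.18, SE 0.080, edgeR adjusted p = 0.306). The main ER chaperone Hspa5 had 211 and 226 CPM against 207 and 233 CPM, with both PTS + RS values between the RS values (log2 -0.012, SE 0.087). Hsp90b1 had 244 and 232 CPM against 230 and 222 CPM, and its groups did not overlap by a narrow margin (log2 0.073, SE 0.075). Herpud1, a component of ER-associated degradation, had 47.3 and 43.9 CPM against 41.2 and 42.0 CPM (log2 0.13, SE 0.092). Creld2 (11.1 and 13.6 against 10.9 and 15.7 CPM) and Sdf2l1 (9.40 and 9.34 against 8.39 and 10.6 CPM), both ER stress genes, overlapped. The 6 ER folding genes with the printed element had a median log2 difference of 0.064 (-0.10 to 0.18), and the 4 with a window without it, Pdia3 and Pdia4 among them, had 0.26 (-0.017 to 0.39).

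Among the UPR signalling genes, Atf4, the transcription factor downstream of Eif2ak3, had 74.4 and 88.1 CPM in PTS + RS and 99.4 and 98.9 CPM in RS. The PTS + RS values were both lower, at a log2 difference of -0.29 (SE 0.097, edgeR adjusted p = 0.185). Chac1, a glutathione-degrading enzyme under Atf4, had 3.91 and 5.51 CPM against 7.95 and 6.18 CPM, without overlap (log2 -0.59, SE 0.25, edgeR adjusted p = 0.281). Ddit3 (CHOP), the pro-apoptotic factor of this branch, had 14.7 and 15.3 CPM against 16.4 and 17.5 CPM, also without overlap (log2 -0.18, SE 0.13, edgeR adjusted p = 0.533). Xbp1 had 66.8 and 61.3 CPM against 60.4 and 56.8 CPM (log2 0.13, SE 0.088) and Atf6 89.8 and 105 CPM against 85.1 and 86.1 CPM (log2 0.18, SE 0.093), both higher without overlap and neither called. Ern1 had 19.0 and 18.4 CPM against 16.4 and 19.0 CPM and overlapped. Hspd1, the mitochondrial chaperonin, had 135 and 167 CPM against 158 and 148 CPM, with both RS values between those of PTS + RS.

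Which members passed depended on single libraries. With PTS + RS replicate 1 left out, 4 were called, all higher (Hspa8, Atf6, Pdia3 and Pdia4). With PTS + RS replicate 2 left out, 7 were called, of which Bag3, Canx and Pdia3 were higher and Hspa1a, Dnajb5, Atf4 and Dnaja1 were lower. With either RS library left out, none was called by edgeR. Dnaja1, the main J-domain partner of Hspa8 and named here after its values were seen, had 218 and 235 CPM in PTS + RS against 277 and 265 CPM in RS, without overlap (log2 -0.26, SE 0.078, edgeR adjusted p = 0.141 with all 4 libraries).

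**Figure D2:**
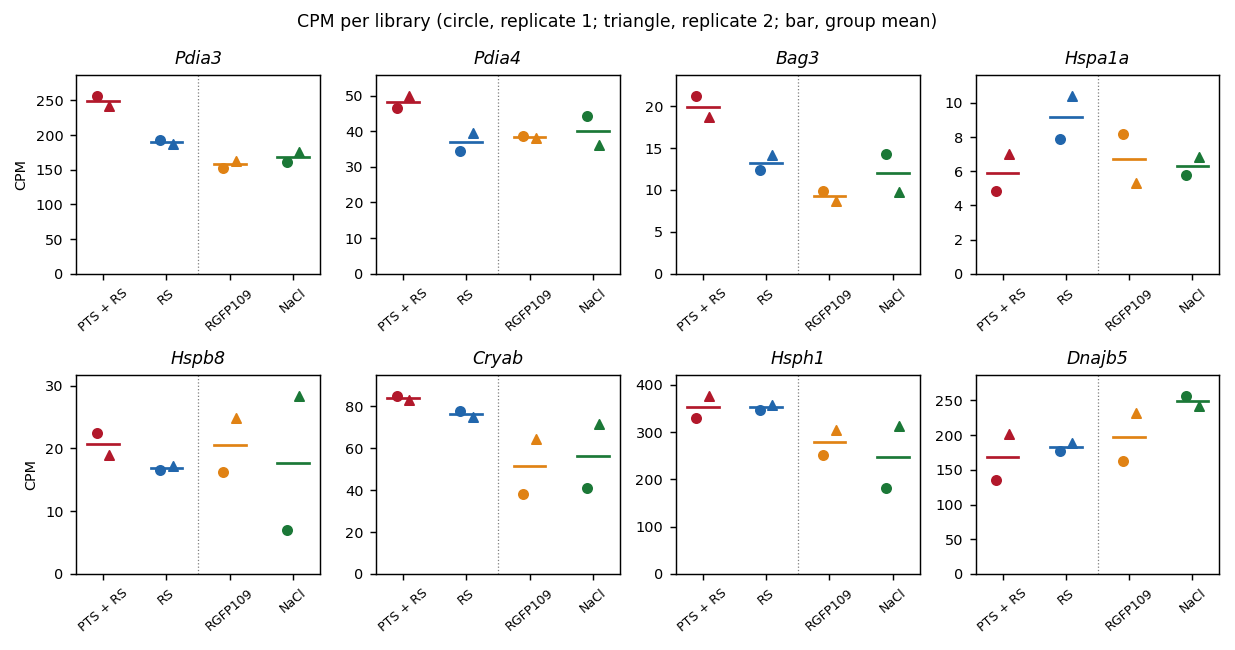
CPM of 8 members in each library, with the 2 tables separated by a dotted line, circles for replicate 1, triangles for replicate 2 and bars for group means. Pdia3, Pdia4 and Bag3 lie higher in both PTS + RS libraries than in both RS libraries, and Hspb8, Cryab and Hsph1 are lower in replicate 1 than in replicate 2 of both the RGFP109 and the NaCl group.

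The wider pathway was read from 94 further genes of cytosolic chaperones, ER folding and degradation, the integrated stress response and mitochondrial chaperones, of which 92 were tested. In PTS + RS against RS, 4 were called higher and 1 lower, against 2.96% and 0.586% of all tested genes. Atf3, a stress-induced partner of Atf4, rose from 0.662 and 1.33 CPM in RS to 4.49 and 3.41 CPM in PTS + RS (log2 2.00, SE 0.39, edgeR adjusted p = 0.0436). Hspb6, a small heat shock protein, rose from 3.26 and 3.72 CPM to 9.51 and 6.94 CPM (log2 1.24, SE 0.24, edgeR adjusted p = 0.0411). Edem1, which hands misfolded glycoproteins to degradation, rose from 24.3 and 30.2 CPM to 52.2 and 42.8 CPM (log2 0.81, SE 0.15, edgeR adjusted p = 0.0329). Psat1, an enzyme of serine synthesis and a target of Atf4, rose from 89.0 and 88.7 CPM to 112 and 127 CPM (log2 0.42, edgeR adjusted p = 0.0477). Wfs1, an ER membrane protein, fell from 176 and 173 CPM to 131 and 102 CPM (log2 -0.58, edgeR adjusted p = 0.0473). With all 4 libraries, limma-voom called only Edem1 of these 5, RLE size factors lost Psat1 and the stricter filter on counts lost Wfs1. DESeq2 called all 5 and in addition Eif2ak2, of the integrated stress response genes (log2 1.18, DESeq2 adjusted p = 0.0018). Eif2ak2 missed the threshold in the main fit (log2 1.19, edgeR adjusted p = 0.0686). Atf3 and Edem1 but not Hspb6, Psat1 and Wfs1 were also called without RS replicate 2 (Atf3 at log2 2.56, Edem1 at 0.96). None of the 94 was called without RS replicate 1. The median log2 fold change was 0.034 for the 32 further ER genes and -0.018 for the 32 further cytosolic genes tested.

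The second comparison asked what RGFP109 did in PTS + RS mice, RGFP109 against NaCl. Of the 41 members tested, 0 were called by edgeR, as were 0% of the 17565 genes tested, and 0 members had an unadjusted p under 0.05, against 0.501% higher and 0.672% lower among all tested genes (1.17% in either direction). DESeq2 and limma-voom also called 0 members. The 2 groups did not overlap in 2 members that were higher and 9 that were lower with RGFP109, against 12.8% and 13.8% of all tested genes (26.6% in either direction). The median log2 difference was 0.072 for cytosolic, -0.12 for ER folding, 0.040 for mitochondrial and -0.024 for UPR signalling genes, beside -0.016 over all genes tested.

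Cytosolic and ER folding genes stood on different sides of 0 here, with a cytosolic minus ER folding difference of 0.19. Per library this difference was 0.037 and 0.13 with RGFP109 and -0.18 and -0.00064 with NaCl. Both RGFP109 libraries were above both NaCl libraries, but 2 libraries against 2 cannot go below p = 0.333 in a two-sided exact permutation test. NaCl replicate 1, the library with olfactory bulb markers, had the lowest cytosolic deviation (-0.17). Without it the difference was 0.066 and the cytosolic median was -0.086, and without NaCl replicate 2 the difference was 0.33. The cytosolic median was also below 0 without RGFP109 replicate 2 (-0.040), while the ER folding median stayed between -0.16 and -0.083 with each library left out in turn. The part of the olfactory bulb signal in it was not tested.

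**Figure D3:**
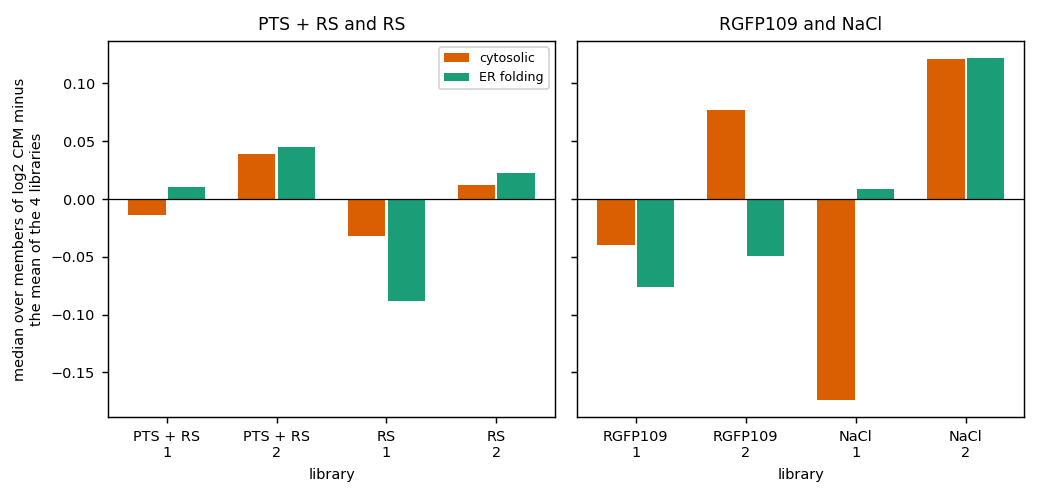
Median over the 18 cytosolic and the 12 ER folding genes of log2 CPM minus the mean of the 4 libraries of the same table, for each library. In the PTS + RS and RS table the lowest bar is at -0.088 (ER folding, RS replicate 1), whereas NaCl replicate 1 has a cytosolic bar at -0.17 and an ER folding bar at 0.0089, and NaCl replicate 2 has both at 0.12.

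Within each replicate number, without a test, the ER folding median stayed below 0 and the cytosolic median changed side. In replicate 1 the median log2 ratio of RGFP109 to NaCl was 0.13 for cytosolic genes (12 of 18 above 0) and -0.086 for ER folding genes (10 of 12 below 0). In replicate 2 it was -0.061 for cytosolic genes (5 of 18 above 0) and -0.13 for ER folding genes (10 of 12 below 0). Over all tested genes, 51.8% were below 0 in replicate 1 and 50.4% in replicate 2. In both numbers, 8 of 12 ER folding genes were below 0 (66.7%) and none above, beside 25.4% below and 23.2% above in both for all tested genes. Of the 18 cytosolic genes, 6 were below 0 in both numbers and 5 above in both. The 8 ER folding genes were Hspa5, Hsp90b1, Herpud1, Sdf2l1, Calr, Pdia3, Manf and Creld2. The genes of a list are not replicates, and none of these 8 passed the test. For the further genes of the wider pathway this count by replicate number was not made. In the fit over both replicate numbers, the 32 further ER genes tested had a median log2 difference of 0.0087 (17 higher, 15 lower). For the 32 further cytosolic genes tested it was -0.010 (14 higher, 18 lower).

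Among them, Hspa5 (ENSMUSG00000026864, chr2:34771970-34777547) had 204 and 221 CPM with RGFP109 and 233 and 267 CPM with NaCl, without overlap (log2 -0.23, SE 0.18). Sdf2l1 had 6.22 and 7.38 CPM against 7.39 and 11.3 CPM, a log2 difference of -0.45 (SE 0.32). The 2 groups touched closely, RGFP109 replicate 2 lying just below NaCl replicate 1 without overlap. Creld2 had 13.6 and 11.2 CPM against 16.8 and 16.1 CPM, without overlap (log2 -0.41, SE 0.22), and Herpud1 had 49.3 and 52.3 CPM against 51.0 and 60.8 CPM, with overlap. Hsp90b1 had 172 and 203 CPM against 206 and 207 CPM (log2 -0.14, SE 0.18). Pdia3, called in the first comparison, had 153 and 163 CPM against 162 and 175 CPM and overlapped (log2 -0.095, SE 0.17). Pdia4 had 38.7 and 38.1 CPM against 44.1 and 35.99 CPM, and Canx 304 and 308 CPM against 311 and 290 CPM, both with overlap. The ER folding genes with the printed element had a median log2 difference of -0.11 and those with a window without it -0.12.

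The cytosolic genes were more scattered. Dnajb5 had 162 and 232 CPM with RGFP109 and 256 and 241 CPM with NaCl, without overlap (log2 -0.33, SE 0.24). Bag3 had 9.89 and 8.74 CPM against 14.3 and 9.79 CPM (log2 -0.37, SE 0.29) and Hspb1 6.85 and 8.46 CPM against 7.79 and 11.96 CPM (log2 -0.37, SE 0.32), both with overlap. Hsp90aa1 had 982 and 1001 CPM against 905 and 919 CPM, without overlap (log2 0.12, SE 0.20). Hspa8 (1025 and 1297 against 1151 and 1359 CPM), Hsf1 (49.5 and 40.8 against 58.6 and 47.8 CPM) and Hspa1a (8.18 and 5.28 against 5.80 and 6.85 CPM) overlapped. Among UPR signalling genes, Ddit3 had 15.6 and 20.1 CPM against 23.8 and 19.95 CPM and overlapped, with the highest value in NaCl replicate 1 (log2 -0.29, SE 0.23). Ern1 had 19.0 and 19.2 CPM against 25.5 and 20.01 CPM (log2 -0.25, SE 0.21) and Xbp1 71.8 and 70.9 CPM against 77.7 and 85.0 CPM (log2 -0.19, SE 0.16), both without overlap. Atf4 (108 and 124 against 109.4 and 117 CPM), Atf6 (75.7 and 113 against 66.6 and 104 CPM), Chac1 (8.18 and 7.15 against 6.31 and 8.86 CPM), Trib3 (0.571 and 0.841 against 0.683 and 0.598 CPM) and Hspd1 (154 and 148 against 148 and 146 CPM) differed by less than 1 SE. None of the 92 further pathway genes tested was called by edgeR or had an unadjusted p under 0.05.

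**Figure D4:**
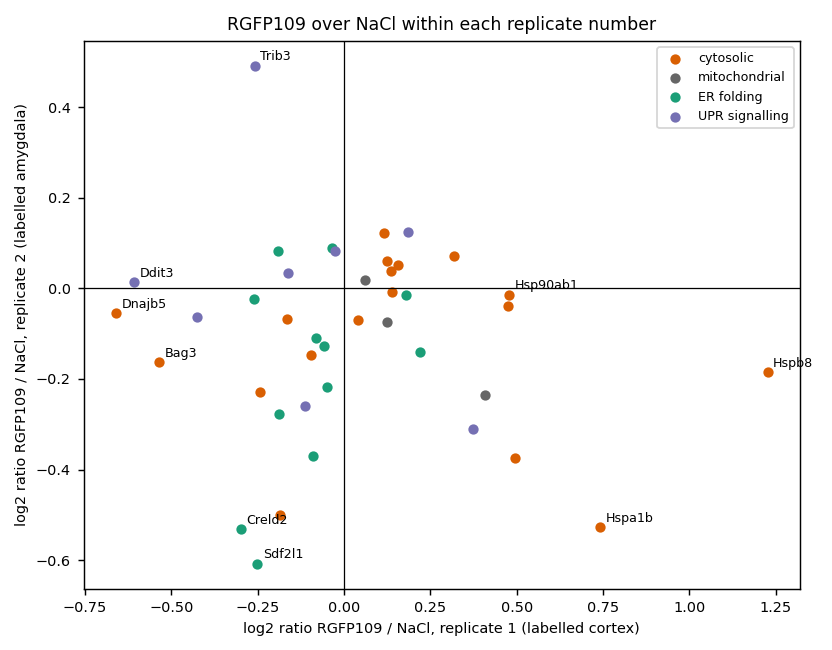
Log2 ratio of RGFP109 to NaCl for each of the 41 members in replicate 1 (x axis) and replicate 2 (y axis), coloured by list. Of the 12 ER folding genes, 8 lie below 0 on both axes and none above 0 on both, while Hspb8 and Hspa1b lie far right of 0 and below 0.

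The widest differences among the members in these 4 libraries were found between the replicate numbers. Replicate 2 was compared with replicate 1 with the treatment as a term, and 0 members and 0% of the 17565 genes tested were called by edgeR. DESeq2 called 207 genes, none of them a member. At an unadjusted p under 0.05, 3 members were higher in replicate 2 and 0 lower, against 6.09% and 3.06% of all tested genes (9.15% in either direction). Libraries did not overlap in 12 members that were higher and 7 that were lower, against 21.6% and 22.4% of all tested genes (44% in either direction). The median log2 difference was 0.25 for cytosolic genes (14 of 18 higher), 0.096 for ER folding (8 of 12 higher), -0.11 for mitochondrial (0 of 3) and 0.12 for UPR signalling genes (7 of 8), beside -0.013 over all genes tested.

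Hspb8 (ENSMUSG00000041548, chr5:116408491-116422864) had 24.9 and 28.3 CPM in the replicates 2 of RGFP109 and NaCl, and 16.2 and 6.94 CPM in their replicates 1. Both replicates 2 were higher (log2 1.31, SE 0.41, unadjusted p = 0.0263, edgeR adjusted p = 0.477), and NaCl replicate 1 had the lowest level of the 8 libraries. Cryab (alpha-B crystallin, ENSMUSG00000032060, chr9:50751325-50756636), abundant in oligodendrocytes and astrocytes, had 64.5 and 71.3 CPM against 38.2 and 40.8 CPM, without overlap (log2 0.78, SE 0.18, unadjusted p = 0.00913, edgeR adjusted p = 0.410). Atf6 had 113 and 104 CPM against 75.7 and 66.6 CPM, without overlap (log2 0.61, SE 0.18, unadjusted p = 0.0214, edgeR adjusted p = 0.473). Beside these, oligodendrocyte markers were higher in replicate 2 in 9 of 10 genes, with sums of 4636 and 5141 CPM against 3235 and 3230 CPM. Microglial markers were higher in 9 of 10, with sums of 474 and 515 CPM against 343 and 270 CPM. Astrocyte markers were evenly split, with 5 higher and 5 lower (median log2 difference 0.023). Neuron markers were higher in 7 of 10 and endothelial markers in 4 of 10. The part of these cell types in the values of Hspb8, Cryab and Atf6 was not tested.

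Hsph1 had 305 and 314 CPM in the replicates 2 against 252 and 181 CPM in the replicates 1, without overlap (log2 0.53, SE 0.23). Hspa8 (1297 and 1359 against 1025 and 1151 CPM) was also higher without overlap, while Hspa1a (5.28 and 6.85 against 8.18 and 5.80 CPM) and Hspa1b (10.7 and 15.5 against 13.1 and 7.85 CPM) overlapped. Bag3 (8.74 and 9.79 against 9.89 and 14.3 CPM) and Hsf1 (40.8 and 47.8 against 49.5 and 58.6 CPM) were lower without overlap, Bag3 by a narrow margin. Of the ER folding genes with the widest difference, Sdf2l1 (log2 0.43, SE 0.28) and Creld2 (log2 -0.17, SE 0.23) overlapped, and Herpud1 (log2 0.17, SE 0.18) did not. Trib3, with 0.841 and 0.598 CPM against 0.571 and 0.683 CPM, rested on too few counts to order its libraries. Taken within each group, the cytosolic median of replicate 2 over replicate 1 was 0.14 with RGFP109 and 0.28 with NaCl, and the ER folding median was -0.0015 and 0.078. The cytosolic minus ER folding difference was 0.15, higher for cytosolic genes in both groups. Per library it was 0.13 and -0.00064 in the replicates 2 of RGFP109 and NaCl, and 0.037 and -0.18 in their replicates 1. NaCl replicate 2 lay below RGFP109 replicate 1, so the replicate numbers overlapped. The lowest value was that of NaCl replicate 1, the library with olfactory bulb markers.

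**Figure D5:**
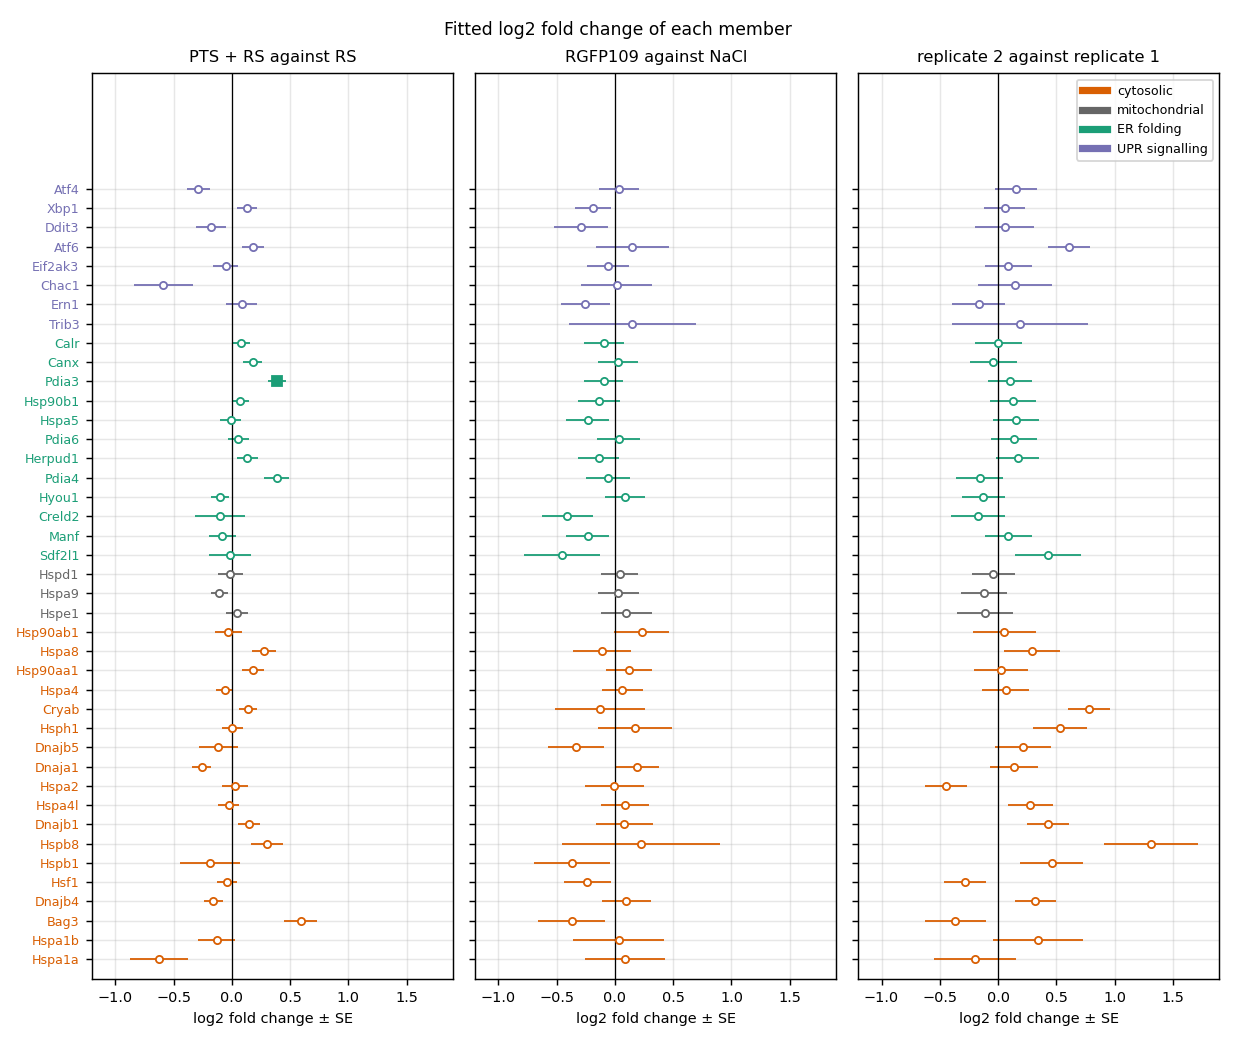
Fitted log2 fold change with its standard error for each member in the 3 comparisons, coloured by list, with a filled square for a member called at an adjusted p under 0.05 and open circles for the others. Pdia3 in PTS + RS against RS is the only filled square, and the right panel shows Hspb8, Cryab and Atf6 at 0.61 and above.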

How the data were processed

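The 41 genes, their lists and the tests were chosen with earlier results of these data known. Per the labels and the methods of the study, the authors aligned reads to GRCm38 with STAR 2.4.0, counted them per gene with HTSeq 0.6.1 and named limma for their tests. The labels name a directional library kit and the methods another kit. The deposited counts are whole reads per gene without normalization, and the FPKM values, also made by the authors, equal count over gene length over 1 factor per library within 0.1% for genes of at least 100 counts. A normalized signal of the authors (8 columns, all for RGFP109 and NaCl libraries) and their fold changes and p-values were not used.

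Counts were filtered with filterByExpr, scaled by TMM and compared with edgeR 4.0.16 (quasi-likelihood test, Benjamini-Hochberg adjustment over all tested genes, R 4.3.3) within each table. CPM are counts divided by that scaled library size, times 1000000. Members with values in every library were those called, the widest by list and comparison, and 11 fixed key genes. Alternatives were DESeq2 1.42.0, limma-voom 3.58.1, RLE size factors, other count filters, a replicate block and each library left out. In the RGFP109 and NaCl table the replicate number carries the tissue label, and same-numbered libraries deviated together (correlation 0.2989). Scripts were tested on simulated data. Of 67 genes changed 2-fold, the fit recovered 86.6% in PTS + RS against RS. It recovered 4.5% in RGFP109 against NaCl and 4.5% in replicate 2 against replicate 1, so calls there miss most such changes. Counting intervals are at 95% and cover counting error only.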

Additional observations from a re-analysis of the deposited data

Results flagged for a closer look

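Some members moved in opposite directions with RGFP109 in the 2 replicate numbers. Of the 41 members, 18 had log2 ratios of RGFP109 to NaCl of opposite sign in replicate 1 and replicate 2, and in 5 of these both ratios lay beyond counting error. Among the genes given in every library, Hspa1b had a ratio of 0.74 in replicate 1 and -0.53 in replicate 2. Hspb8 had a ratio of 1.23 in replicate 1 and -0.19 in replicate 2. Each ratio rests on 1 library a side, and the difference between the replicate numbers was not tested. In replicate 1 the NaCl library is the one with olfactory bulb markers at 1618 CPM, and it held the lowest level of both genes among the 4 libraries (7.85 CPM for Hspa1b and 6.94 CPM for Hspb8). The part of that signal in these ratios was not tested. Of the 120-base stretches of Hspa1b, 45.8% also occur in another gene, chiefly Hspa1a.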

How the results depend on the processing

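In PTS + RS against RS, 624 genes and 1 member were called. The counts were 1835 and 4 without the filter on counts (the members Pdia3, Pdia4, Bag3 and Atf4) and 389 and 0 with a log2 fold change of at least 1. With each library left out in turn they ran from 371 to 2691 genes and from 0 to 7 members, the cytosolic median from -0.058 to 0.084, the ER folding median from -0.0034 to 0.15 and the cytosolic minus ER folding difference from -0.15 to 0.027. Leaving out a library leaves 1 in its group, which is assumed to vary like the others. In this table the correlation of same-numbered deviations was 0.0352, and whether the replicate numbers carry a batch was not tested. A replicate block gave 915 genes and 1 member, Pdia3.

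In RGFP109 against NaCl, 0 genes were called, and 93 without NaCl replicate 2. With each library left out, the cytosolic median ran from -0.086 to 0.24 and the difference from 0.066 to 0.33. The replicate block, by tissue label, called 0 genes and changed no call, with 1 residual degree of freedom. In replicate 2 against replicate 1, DESeq2 called 207 genes and the fit without a filter 240, neither with a member. With 1 library left out, the cytosolic median ran from 0.14 to 0.28 and the ER folding median from -0.0015 to 0.078, given as the ratios of the remaining pair. Counts of calls there were not run, since no residual degrees of freedom remain. The cause of these shifts was not tested. Of 798 alternative values of 27 genes, 729 kept their side of the threshold and, where not called, moved by at most 1 standard error, 56 uncalled values moved by more, 57 uncalled values and no called one changed sign, 11 passed the threshold newly and 2 lost it, the latter being Pdia3 without either RS library. Depth limits Trib3, at 9 to 18 counts in a library, and was not varied for the other members.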
